A study of Mus musculus with 7 samples.

Results

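Srsf3 peaks on the transcripts of ubiquitin ligases and deubiquitinases were collected from the full peak list of PDGF-AA-treated cells and the full peak list of untreated cells. A peak was taken when its gene symbol began with Ube, Ubr, Fbxo, Fbxw, Fbxl or Herc, with Usp, Trim, Cul or Rnf followed by a digit, or was Huwe1. The rule used names and no measured value, and it found 182 of 8384 peaks in the PDGF-AA list, against 124 of 6396 peaks in the untreated list. Together these 306 peaks lay in 128 of the 5368 genes with a peak in either list, out of 352 protein-coding genes of the mouse annotation whose names fit the rule. Some names carry a member into the set without ligase or deubiquitinase function of its own. Ube2m conjugates NEDD8, and Usp6nl is a GTPase-activating protein for Rab proteins.

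The peaks came from enhanced UV-crosslinking and immunoprecipitation (eCLIP) of Srsf3, a serine/arginine-rich splicing factor, in iMEPM cells, an immortalized line derived from mouse embryonic palatal mesenchyme. Cells of both groups were serum starved. The PDGF-AA group then was given PDGF-AA, which binds the receptor PDGFRα, at 10 ng/mL for 1 hour and is represented by 1 Srsf3 library, while the untreated group received no ligand and is represented by 2 Srsf3 libraries. Each condition also had 1 input library and 1 IgG library. The peak caller was run once for each condition, so every comparison below sets 1 list against 1 list, has no replicate check and carries no p-value. The lists give intervals without scores or read counts. The depth behind a peak is therefore unknown. The study's methods list more mapped reads for the PDGF-AA Srsf3 library than for either untreated one, and slightly more than for both untreated ones together. Depth and treatment cannot be told apart. Likewise, stronger binding and a higher transcript level cannot be told apart. Of 9 genes that mark palatal mesenchyme, 7 carried peaks (Prrx1, Twist1, Pdgfra, Col1a1, Col1a2, Vim and Runx2), while Msx1 and Osr2 had none. None of 8 markers of epithelium, endothelium and blood carried a peak. An Srsf3 peak is not a measure of expression, so these counts do not establish the cell type.

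Ubiquitin is attached to proteins by a relay of enzymes. An activating enzyme (E1) passes it to a conjugating enzyme (E2, here the Ube2 genes), and a ligase (E3) places it on the substrate. HECT ligases such as Huwe1, Herc1 and Ube3b carry the ubiquitin themselves. RING ligases, among them many but not all Rnf and Trim proteins, bring the E2 to the substrate. Some cullins, such as Cul1, hold exchangeable F-box proteins (Fbxo, Fbxw, Fbxl) that recognize substrates. Ubiquitin-specific proteases (Usp) remove the mark. Activated receptor tyrosine kinases are among the proteins that carry ubiquitin marks during endocytosis.

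The kinds of site that recur in the results are shown first, with a few examples of each printed 5′ to 3′ on the transcribed strand, read from GRCm39 at the deposited intervals. The first kind was a long run of alternating C and A in an intron. It is shown for Herc1 (intron 25, chr9:66334049-66334139, plus strand) and Fbxl7 (intron 2, minus strand), with the longest run in capitals. Fbxl7 had this site in both lists, at chr15:26656434-26656501 in the PDGF-AA list, and at chr15:26656430-26656508 in the untreated list.
Fbxl7, PDGF-AA list: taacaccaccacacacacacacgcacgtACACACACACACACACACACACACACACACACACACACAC
Fbxl7, untreated list: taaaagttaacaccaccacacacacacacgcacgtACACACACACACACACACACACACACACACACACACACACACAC
Herc1, untreated list: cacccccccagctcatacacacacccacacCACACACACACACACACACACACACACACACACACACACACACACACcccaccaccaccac

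The second kind was a purine-rich coding stretch bound in both lists. The PDGF-AA peak is shown for Usp34 (exon 15, chr11:23313959-23314088, plus strand), Usp36 (exon 17, chr11:118154553-118154642, minus strand), Trim26 (exon 10, chr17:37168556-37168664, plus strand), Usp47 (exon 23, chr7:111692520-111692596, plus strand) and Huwe1 (exon 54, chrX:150690273-150690329, plus strand). Capitals mark the GA-rich hexamers searched for, which were the hexamer GAAGAA, the hexamer AGAAGA and the hexamer AAGAAG on the transcribed strand only. These hexamers overlap each other in longer GAA repeats. The study reported GAAGAA and AGAAGA among the top motifs of its PDGF-AA peaks, and AAGAAG among those of its untreated peaks. GAAGCG, another top motif of its PDGF-AA peaks, was not searched for. Purines made up 81.5% of the Usp34 peak, 77.8% of the Usp36 peak, 79.8% of the Trim26 peak, 74.0% of the Usp47 peak and 75.4% of the Huwe1 peak.
Usp34: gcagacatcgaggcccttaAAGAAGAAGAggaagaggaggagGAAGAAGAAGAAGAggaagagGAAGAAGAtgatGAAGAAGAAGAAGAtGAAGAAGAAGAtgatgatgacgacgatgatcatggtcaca
Usp36: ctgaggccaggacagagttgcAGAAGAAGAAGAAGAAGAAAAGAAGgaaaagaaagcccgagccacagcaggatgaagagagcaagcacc
Trim26: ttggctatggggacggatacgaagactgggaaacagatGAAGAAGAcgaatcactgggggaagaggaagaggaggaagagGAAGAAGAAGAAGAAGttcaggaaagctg
Usp47: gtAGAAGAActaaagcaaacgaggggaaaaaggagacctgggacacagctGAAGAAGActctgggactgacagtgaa
Huwe1: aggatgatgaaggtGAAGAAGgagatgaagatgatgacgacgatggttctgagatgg

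The third kind was a coding site found in the PDGF-AA list and absent from the untreated list. It is shown for a pair of paralogs that were bound in the same exon, Rnf20 (exon 15, chr4:49652534-49652618, plus strand) and Rnf40 (exon 15, chr7:127195977-127196086, plus strand), and for Ube2e1 (exon 2, chr14:4138637-4138697, plus strand) and Ube2e3 (exon 2, chr2:78700892-78700941, plus strand). Capitals again mark GA-rich hexamers. These examples were chosen after their positions were seen.
Rnf20: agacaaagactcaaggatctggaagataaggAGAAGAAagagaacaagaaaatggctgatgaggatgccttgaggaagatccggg
Rnf40: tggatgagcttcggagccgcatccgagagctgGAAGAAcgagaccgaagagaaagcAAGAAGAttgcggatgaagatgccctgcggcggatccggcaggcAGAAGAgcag
Ube2e1: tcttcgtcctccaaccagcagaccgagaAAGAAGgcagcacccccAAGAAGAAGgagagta
Ube2e3: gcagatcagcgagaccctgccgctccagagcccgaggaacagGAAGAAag

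The fourth kind was a site in the untreated list that ran from a coding exon across its 5′ splice site into the intron. It is shown for Cul7 (exon 8, chr17:46966625-46966689, plus strand), Ube3b (exon 19, chr5:114546242-114546291, plus strand), Usp5 (exon 2, chr6:124803247-124803290, minus strand) and Rnf126 (exon 5, chr10:79597370-79597450, minus strand), with the exon in capitals and the intron in lower case. Each intron begins with gt. Intervals are printed as deposited, while the distances to splice sites given later were read after moving them back by 1 nt.
Cul7: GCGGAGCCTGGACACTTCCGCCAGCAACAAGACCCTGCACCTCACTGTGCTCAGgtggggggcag
Ube3b: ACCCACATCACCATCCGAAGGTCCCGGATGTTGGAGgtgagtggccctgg
Usp5: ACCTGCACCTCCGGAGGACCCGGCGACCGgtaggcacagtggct
Rnf126: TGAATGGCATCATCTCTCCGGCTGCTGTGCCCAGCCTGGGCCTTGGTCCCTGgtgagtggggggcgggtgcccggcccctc

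The first comparison asked which of these transcripts carried peaks with and without ligand. Peaks were found in 114 member genes in the PDGF-AA list, against 79 member genes in the untreated list, and 65 genes were shared (50.8%, background 50.4%). A further 49 genes (38.3%, Wilson 95% interval 30.3 to 46.9) had peaks in the PDGF-AA list only, against 33.2% of all bound genes, and 14 (10.9%, 6.63 to 17.5) had peaks in the untreated list only, against 16.3% of all bound genes. The PDGF-AA list held more peaks for 68 member genes (53.1%, background 50.6%), fewer for 26 (20.3%, background 26.7%) and as many for 34 (26.6%, background 22.7%). These shares lay near the background, and nothing particular to the members is read from them. The Wilson intervals cover counting error only. Most members had a single peak, 72 of 114 genes in the PDGF-AA list, against 50 of 79 in the untreated list. Over all bound genes these were 2598 of 4491 and 2204 of 3585.

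At least 2 more peaks in the PDGF-AA list were found for 13 members (10.2%, background 14.6%), and at least 2 fewer for 6 (4.69%, background 5.94%). Ubr4, a very large ligase that recognizes destabilizing N-terminal residues, led with 9 peaks in the PDGF-AA list, against 4 in the untreated list. Fbxl7, an F-box protein, had 6 peaks in the PDGF-AA list, against 2 in the untreated list. Of its PDGF-AA peaks, 2 lay at the same place, one inside the other (chr15:26728577-26728617 and chr15:26728589-26728616). By the caller's own peak names, the Fbxl7 difference was 3. Trim47, a RING ligase, had 4 PDGF-AA peaks and no untreated peak, and Trim25 and Rnf31 had 3 and none. Trim25 ubiquitinates the RNA sensor RIG-I and itself binds RNA. Rnf31 is the catalytic subunit of the complex that builds linear ubiquitin chains. In the other direction, Fbxl17 had 2 peaks in the PDGF-AA list, against 4 in the untreated list, and Usp5, which takes apart free ubiquitin chains, had 1 and 3. Rnf216, Fbxo25 and Ube2q2 had no PDGF-AA peak and 2 untreated peaks each. Many of these peaks were short. With only peaks of at least 40 nt, the difference (PDGF-AA minus untreated) was 2 for Ubr4 and Fbxl7, 1 for Trim47, Trim25 and Fbxl17, 0 for Rnf31, Fbxo25 and Ube2q2, and -1 for Usp5 and Rnf216.

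**Figure D1:**
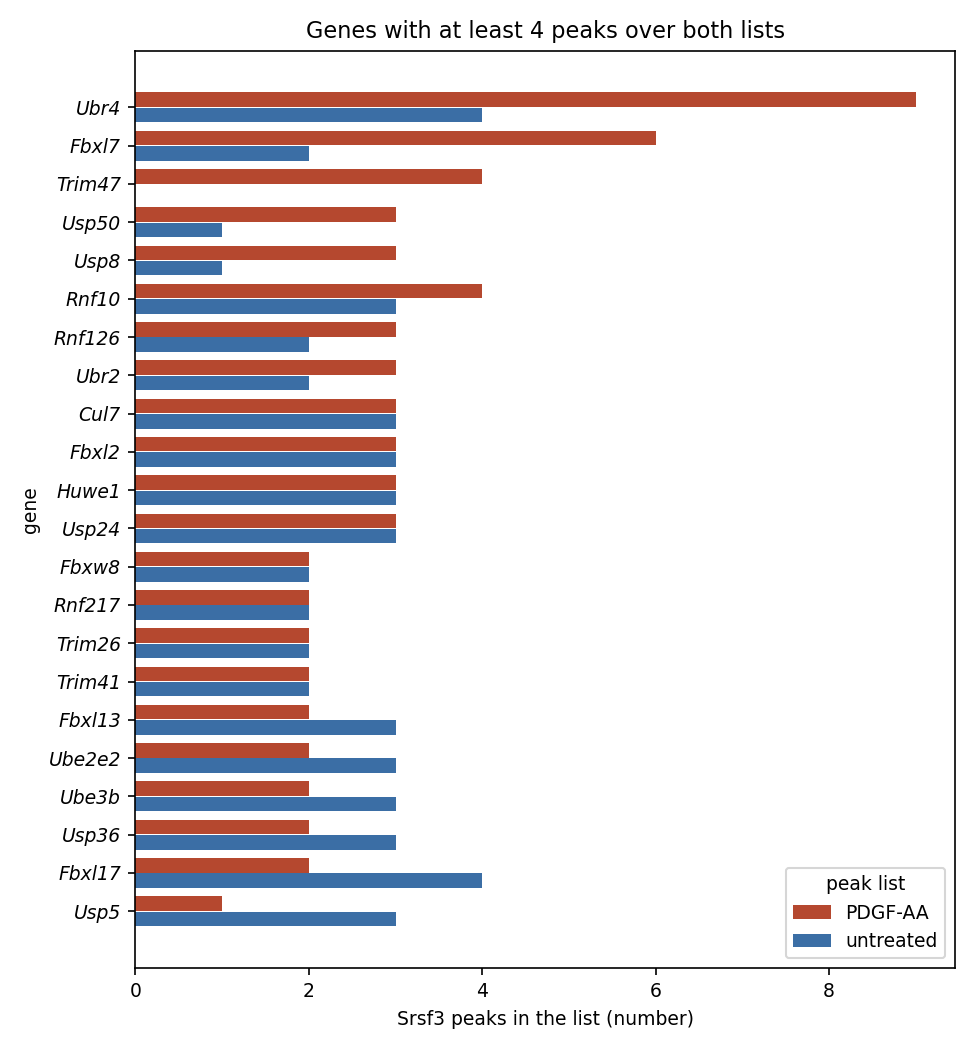
Number of Srsf3 peaks (horizontal axis) in the PDGF-AA list (red, upper bar) and the untreated list (blue, lower bar) for 22 member genes with at least 4 peaks over both lists, ordered by the difference. Ubr4 heads the order with 9 and 4 peaks, and Usp5 closes it with 1 and 3.

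The second comparison asked where on the transcripts the peaks lay. Coding sequence held 137 of 182 member peaks in the PDGF-AA list (75.3%, 68.5 to 81.0), against 62 of 124 in the untreated list (50.0%, 41.3 to 58.7). Each nucleotide took the first class that any annotated transcript gave it, in the order coding sequence, 5′ UTR, 3′ UTR, non-coding exon, intron. A peak took the class that most of its nucleotides had. Where any overlap with a UTR of some transcript took precedence, the coding shares were 25.8% in the PDGF-AA list, against 21.0% in the untreated list, and the intron shares 17.6% and 37.9%. Introns held 33 peaks in the PDGF-AA list (18.1%, 13.2 to 24.4), against 52 in the untreated list (41.9%, 33.6 to 50.7). Over all genes the coding shares were 80.6% and 53.6%, and the intron shares 11.8% and 35.6%, in the same order of lists. The 5′ UTR held 10 member peaks in the PDGF-AA list (5.49%), against 9 in the untreated list (7.26%), beside 2.78% and 5.13% over all genes. The 3′ UTR held 2 (1.10%, 0.302 to 3.92) and 0 (which allows a share of up to 2.42%), beside 2.84% and 2.41% over all genes. These UTR counts are small, and nothing particular to the members is read from them. In Usp22, 1 untreated peak lay mostly in a non-coding exon. Coding peaks were found in 90 of 114 member genes in the PDGF-AA list, against 41 of 79 in the untreated list, while 16 and 31 genes had peaks in introns only. These gene counts were not taken over all bound genes, so nothing particular to the members is read from them. Median peak width was 48.5 nt in the PDGF-AA list, against 47.5 nt for untreated cells.

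**Figure D2:**
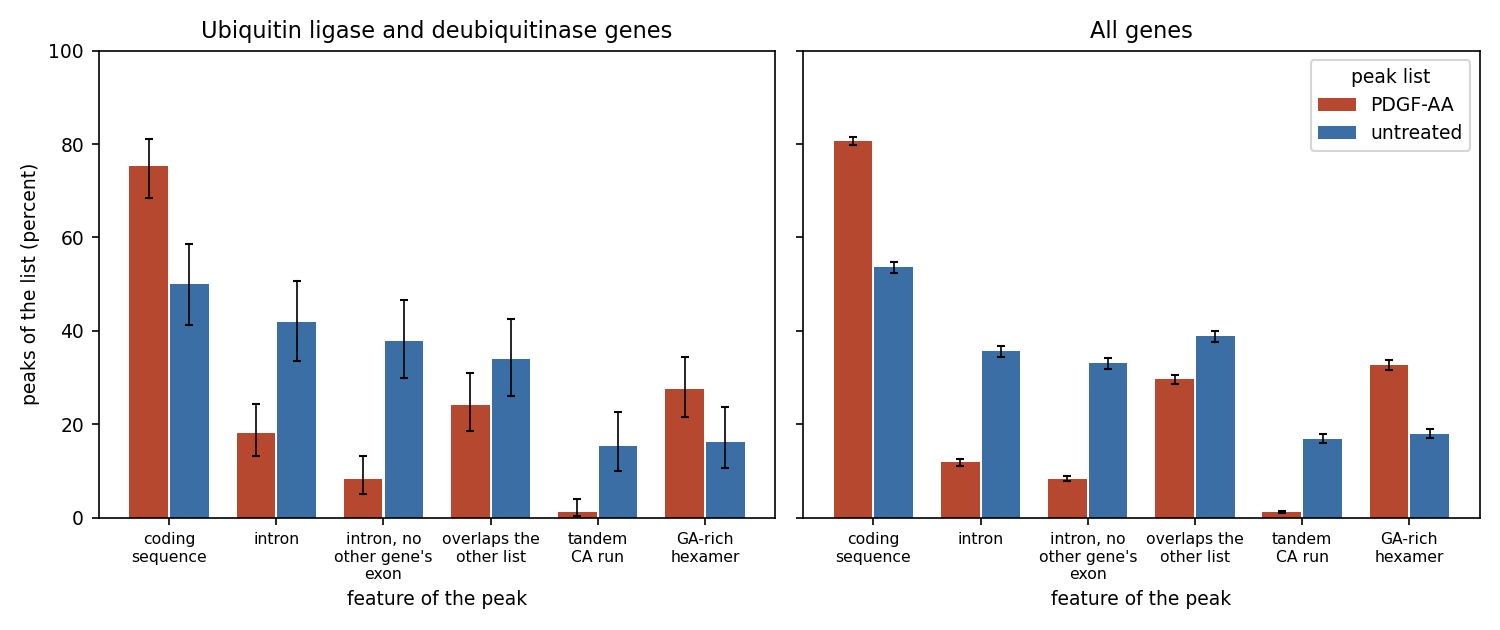
Percent of peaks (vertical axis) with each feature in the PDGF-AA list (red) and the untreated list (blue), for the member genes at left and for all genes at right, with Wilson 95% intervals as error bars. Coding sequence held 75.3% of member peaks in the PDGF-AA list, against 50.0% in the untreated list, and intron peaks clear of any other gene's exon 8.24% and 37.9%.

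Intron peaks of the PDGF-AA list often lay on an exon of another gene. This was the case for 18 of 33 member peaks in the PDGF-AA list (54.5%), against 5 of 52 in the untreated list (9.62%), beside 29.4% and 7.42% of intron peaks over all genes. Of the PDGF-AA peaks, 8 sat on exons of same-strand transcripts within introns of Fbxl7, Rnf217, Ube2r2 and Usp30, most of them annotated as processed pseudogenes, copies of spliced mRNAs of other genes. A further 10 sat on coding genes of the opposite strand, in Fbxl13 (over Lrrc17), Fbxl2 (over Ubp1), Rnf123 (over Amigo3), Trim28 (over Zbtb45), Usp37 (over Cnot9) and Usp50 (over Usp8). Which gene the reads came from cannot be told apart there. Clear of any other exon, intron peaks made up 15 of 182 member peaks in the PDGF-AA list (8.24%, 5.06 to 13.2), against 47 of 124 in the untreated list (37.9%, 29.8 to 46.7).

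Usp8 and Usp50 show the overlap most directly. Usp8, a deubiquitinase of endosomes that acts on internalized receptors, had 3 PDGF-AA peaks, 1 in exon 5 (chr2:126571084-126571172) and 2 in exon 11 (chr2:126584247-126584343 and chr2:126584352-126584455), and 1 untreated peak in exon 11 (chr2:126584259-126584330). Usp50, which overlaps it on the other strand, was listed with 3 PDGF-AA peaks at chr2:126571083-126571172, chr2:126584244-126584344 and chr2:126584352-126584457 and 1 untreated peak at chr2:126584255-126584330. Each Usp50 peak thus mirrored a Usp8 peak with edges at most 4 nt apart, and all lay in Usp50 introns. Over the members, 13 of 182 PDGF-AA peaks (7.14%) and 5 of 124 untreated peaks (4.03%) overlapped a peak of the other strand, beside 4.08% and 3.41% of all peaks. Every Usp8 and Usp50 peak was among them, so neither gene had a peak that could be assigned to it alone.

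The conjugating enzymes had 18 peaks in 14 Ube2 genes in the PDGF-AA list, against 14 peaks in 11 genes in the untreated list, of 38 annotated. Of these, 11 PDGF-AA peaks and 6 untreated peaks were coding. Ube2e1 and Ube2e3, closely related E2 enzymes, were bound in exon 2 in the PDGF-AA list only, at the sequences printed above. Their paralog Ube2e2 was bound in introns only, with 2 neighbouring PDGF-AA peaks (chr14:3841951-3842010 and chr14:3842012-3842045) inside 1 untreated peak of 110 nt (chr14:3841950-3842059), and 2 more untreated peaks on CA runs of 15 and 22 nt. Ube2h, the E2 of the multisubunit CTLH ligase, shared an intron 1 site between the lists with CA runs of 24 nt in the PDGF-AA peak and 31 nt in the untreated peak. Ube2r2, an E2 for cullin ligases, had 2 PDGF-AA peaks that overlapped each other on the pseudogene Gm12403 in intron 1 and 1 untreated peak farther upstream in the same intron on a CA run of 28 nt. Ube2c, the E2 of the anaphase-promoting complex, and Ube2b, the E2 that works with Rnf20 and Rnf40, had 1 coding PDGF-AA peak each and no untreated peak.

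Among HECT ligases, Huwe1, which targets p53 and Mcl1, had 3 coding peaks in each list and no intron peak. Both lists held a peak that ended exactly at the 5′ splice site of exon 53 (93 nt in the PDGF-AA list, 48 nt in the untreated list) and a peak that began exactly at the start of exon 54 (57 nt and 41 nt), on either side of an intron of 191 nt. The remaining Huwe1 peak was in exon 32 in the PDGF-AA list, and in exon 71 in the untreated list. Herc1 had 2 coding peaks in the PDGF-AA list (exons 22 and 70), against 1 intron peak in the untreated list, and Herc2, a giant ligase of the DNA damage response, had only an untreated intron peak with a CA run of 43 nt. With only peaks of at least 40 nt, the Herc1 difference was -1. Ube3b had 2 coding PDGF-AA peaks (exons 14 and 25) and 3 coding untreated peaks (exons 14, 19 and 23), none at the same place.

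The Ubr ligases had 17 peaks in the PDGF-AA list, all coding, and 11 in the untreated list, of which 8 were coding and 3 intronic. Ubr4 had no site in common between the lists. Its 9 PDGF-AA peaks lay in exons 10, 38, 48, 52 (2 peaks), 53, 85, 99 and 103 of 106, and 3 of them held a GA-rich hexamer. Its 4 untreated peaks lay in exons 4, 46 and 56 and on a CA run of 30 nt in intron 33. A further 2 untreated peaks that the caller named for Ubr4 were listed under Emc1. Counted with Ubr4, they bring its difference to 3 peaks. Ubr2, a recognition ligase of the N-degron pathway, had 3 coding PDGF-AA peaks and 2 untreated peaks. The shared ones ended at the 5′ splice site of exon 29 (44 nt and 60 nt) and began at the start of exon 30 (82 nt and 70 nt), around an intron of 377 nt. Ubr3 had a coding peak in exon 29 in the PDGF-AA list, against a peak on a CA run of 49 nt in intron 3 in the untreated list.

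The Rnf ligases had 33 peaks in 22 genes in the PDGF-AA list, against 18 peaks in 12 genes in the untreated list, of 86 annotated genes, and 8 genes were shared. More peaks in the PDGF-AA list were found for 18 of 26 bound Rnf genes (background 50.6% of all bound genes) and fewer for 4 (background 26.7%). In the other large families this split was 15 more and 8 fewer of 32 bound Usp genes, and 8 more and 2 fewer of 16 bound Trim genes. Nothing particular to the Rnf genes is read from it. Rnf20 and Rnf40, which together monoubiquitinate histone H2B, each had 1 PDGF-AA peak in exon 15 of 20 and no untreated peak. Both exons are 150 nt long and identical at 96 positions (64.0%). The Rnf20 peak of 85 nt began at base 13 of its exon and the Rnf40 peak of 110 nt at base 2 in deposited coordinates, so the first lay within the stretch covered by the second. Rnf168, which ubiquitinates histone H2A at DNA breaks, had a PDGF-AA peak of 97 nt in exon 3, and Rnf111, which promotes TGF-β signaling, had 2 in exon 2. Rnf2, the catalytic subunit of Polycomb repressive complex 1, had a coding PDGF-AA peak in exon 4 and an untreated peak that crossed from exon 5 into the intron. Rnf126, a ligase of misplaced membrane proteins, was bound in exons 5 and 6 in both lists and also in exon 8 in the PDGF-AA list. Rnf10 had 4 PDGF-AA peaks and 3 untreated peaks, with shared sites in exons 1 and 13.

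The Trim ligases had 23 peaks in 15 genes in the PDGF-AA list, against 12 peaks in 9 genes in the untreated list, of 68 annotated genes. Of these, 21 PDGF-AA peaks and 8 untreated peaks were coding, and 6 of each list overlapped the other list. Many Trim genes share an exon layout. Exon lengths that recurred among the bound Trim genes were picked out after the values were seen, mostly from PDGF-AA peaks, and are given as a description. Bound exons of 96 nt were those of Trim27, Trim39 and Trim41 in the PDGF-AA list and that of Trim41 in the untreated list. Bound exons of 231 nt (Trim11, Trim35) or 234 nt (Trim16, Trim25) were each the third of their gene, and of these Trim16 alone was bound in the untreated list. Trim16 was bound there at chr11:62724953-62725022 in the PDGF-AA list and at chr11:62724970-62725025 in the untreated list. Trim3 exon 10 and Trim25 exon 4, bound in the PDGF-AA list, were both 169 nt long. Trim47 peaks lay in exons 4, 5 (2 peaks) and 6. Trim26 had neighbouring peaks of 64 and 109 nt in the PDGF-AA list, against 48 and 89 nt in the untreated list, at the same place in exon 10. Trim71, a let-7 target active early in development, had only an untreated peak, in the 5′ UTR.

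**Figure D3:**
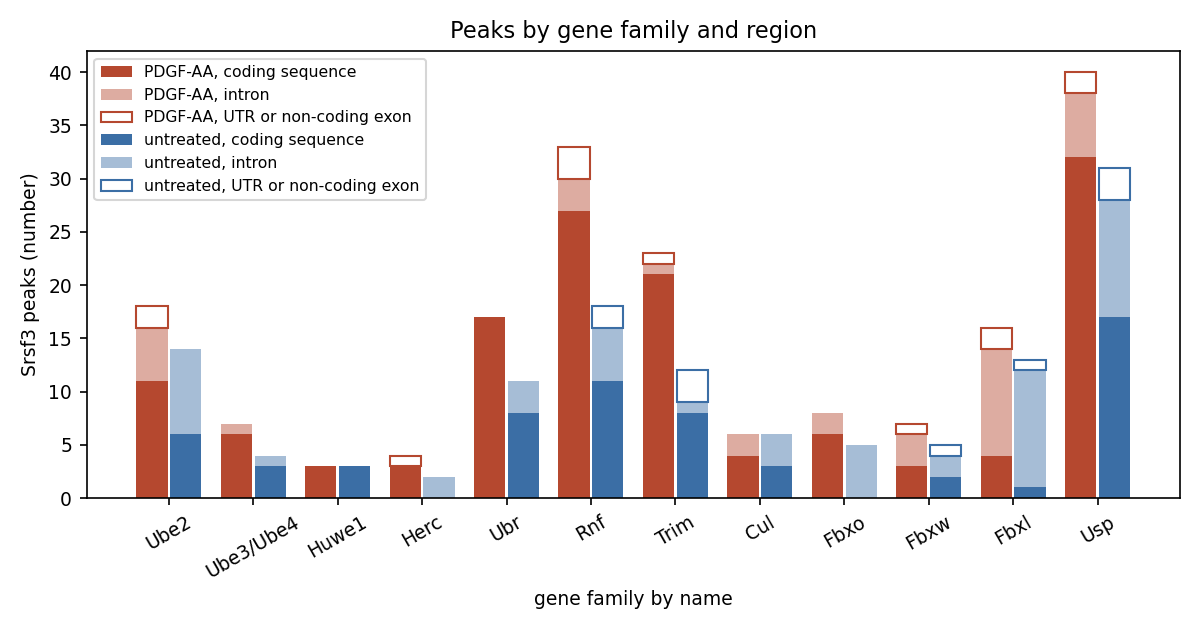
Number of Srsf3 peaks (vertical axis) by gene family (horizontal axis) in the PDGF-AA list (red, left bar) and the untreated list (blue, right bar), split into coding sequence (solid), intron (pale) and UTR or non-coding exon (open). The Ubr bar of the PDGF-AA list is wholly coding (17 peaks), and the Fbxl bars are mostly intronic in both lists (10 of 16 and 11 of 13 peaks). Most of the Fbxl intron peaks of the PDGF-AA list lay on exons of other genes, in Fbxl2, Fbxl7 and Fbxl13. In the untreated list only those of Fbxl2 did.

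Some cullins form multisubunit ligases with F-box proteins. Cul7, which assembles with Fbxw8, had 3 coding peaks in each list, with shared sites in exons 6 and 22. Its exon 6 peaks began at the same base, and the PDGF-AA peak of 36 nt stopped 1 nt past the splice site while the untreated peak of 55 nt ran 20 nt into the intron. Cul1, the scaffold of SCF ligases, had 1 peak in each list at the same place in intron 2, both with a GA-rich hexamer. Cul5 had an intron peak in each list at different places, with a CA run of 47 nt in the untreated one. Fbxl genes had 4 coding peaks of 16 in the PDGF-AA list, against 1 of 13 in the untreated list. Of the 6 Fbxl7 peaks in the PDGF-AA list, 1 was on the shared CA run of intron 2, 3 on other genes' exons in the same intron, 1 in exon 2 and 1 in the 5′ UTR, and of its 2 untreated peaks both were on CA runs in intron 2. Fbxo genes had 6 coding peaks of 8 in the PDGF-AA list, against none of 5 in the untreated list. Fbxw7, which marks Myc and cyclin E for degradation, was bound in exon 3 in both lists, and each of these peaks overlapped a peak on the opposite strand. Fbxw8 had 2 intron peaks in each list, 1 of them shared in intron 9.

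The deubiquitinases had 40 peaks in 29 Usp genes in the PDGF-AA list, against 31 peaks in 22 genes in the untreated list, of 56 annotated genes. In both lists 19 genes had peaks, and 11 peaks of each list overlapped the other list. Coding sequence held 32 of 40 PDGF-AA peaks and 17 of 31 untreated peaks. The shared coding sites included the widest member peak of the PDGF-AA list, 130 nt in exon 15 of Usp34 beside 102 nt in the untreated list, and sites in Usp16 (exon 13), Usp36 (exons 16 and 17), Usp42 (exon 15) and Usp47 (exon 23). Usp16 removes ubiquitin from histone H2A, and Usp36 is a nucleolar deubiquitinase. Sites differed for Usp7, the deubiquitinase of Mdm2, which had a coding PDGF-AA peak in exon 16 and 2 untreated peaks in a 5′ UTR. Usp22, of the SAGA coactivator complex, had 1 coding PDGF-AA peak in exon 4 and 2 untreated peaks that crossed the 5′ splice sites of exons 2 and 5. Usp5 had 1 PDGF-AA peak in exon 18 and 3 untreated peaks, at exons 2, 6 and 9, of which those at exons 2 and 6 crossed the 5′ splice site. Usp39, a splicing factor of the tri-snRNP that lacks protease activity, had 1 PDGF-AA peak that ended at the 5′ splice site of exon 9 and no untreated peak.

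The third comparison asked whether the lists shared positions and not only genes. Of member peaks, 44 of 182 in the PDGF-AA list (24.2%, 18.5 to 30.9), against 42 of 124 in the untreated list (33.9%, 26.1 to 42.6), overlapped a peak of the other list by at least 1 nt, beside 29.6% and 38.8% of all peaks. They formed 45 pairs in 33 genes, so 33 of the 65 genes bound in both lists (50.8%) shared a site and 32 did not, beside 60.8% of all genes bound in both lists. The PDGF-AA peak was the wider in 32 of the 45 pairs and the untreated peak in 13. Of the pairs, 30 were coding in both lists and 12 intronic in both. Of coding peaks, 30 of 137 in the PDGF-AA list (21.9%), against 28 of 62 in the untreated list (45.2%), overlapped the other list, beside 29.3% and 57.5% over all genes.

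Tandem CA runs, taken as at least 12 nt of alternating C and A, were found in 2 member peaks of the PDGF-AA list (1.10%, 0.302 to 3.92) and 19 of the untreated list (15.3%, 10.0 to 22.7), beside 1.2% and 16.9% of all peaks. All 21 lay in introns. Both PDGF-AA peaks, in Fbxl7 and Ube2h, overlapped an untreated peak with a CA run. The 19 untreated peaks fell in 16 genes, among them Cul5, Fbxl7, Fbxl17, Herc1, Herc2, Rnf217, Ube2e2, Ube2h, Ube2j1, Ube2r2, Ubr3, Ubr4, Usp6nl and Usp32, with runs of 15 to 56 nt and a median of 39 nt. Runs of 51 nt in Rnf217 and 49 nt in Ubr3 were among the longest. No run in the other intron peaks exceeded 6 nt in the PDGF-AA list, against 8 nt in the untreated list. As a measure of how common such runs are, 0.298% of 144575 windows of 48 nt in introns of the member genes outside peaks held one, and none of 6136 windows in their coding exons did. In introns clear of other exons, CA runs were in 2 of 15 member peaks in the PDGF-AA list, against 19 of 47 in the untreated list (13.3% and 40.4%, beside 13.1% and 48.1% over all genes). The study had reported CACACA as a top motif of these same untreated peaks, so the list difference is not an independent result.

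**Figure D4:**
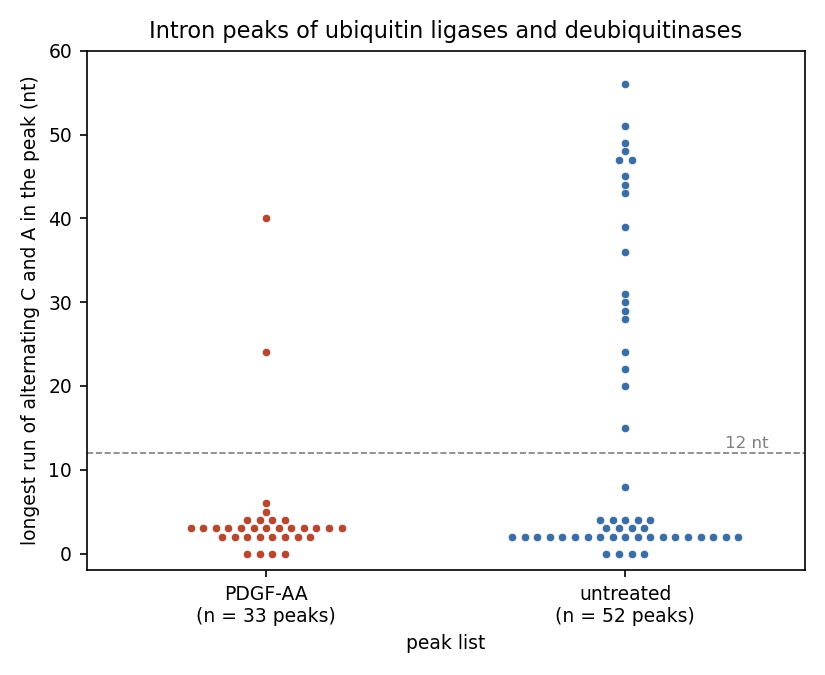
Longest run of alternating C and A (vertical axis, nt) in each of the 33 intron peaks of the PDGF-AA list (left) and the 52 of the untreated list (right) in member genes. The dashed line marks 12 nt, and 2 PDGF-AA peaks and 19 untreated peaks lie above it with an empty stretch between them and the rest.

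GA-rich hexamers were in 50 of 182 member peaks in the PDGF-AA list (27.5%, 21.5 to 34.4), against 20 of 124 in the untreated list (16.1%, 10.7 to 23.6), beside 32.7% and 18% of all peaks. Among coding peaks the shares were 44 of 137 (32.1%) in the PDGF-AA list, against 13 of 62 (21.0%) in the untreated list, beside 32.9% and 24.6% over all genes, and 8.87% of 48-nt windows in coding exons of the member genes outside peaks held one. In the PDGF-AA list the hexamers were in 14 of 30 coding peaks that overlapped the untreated list (46.7%) and in 30 of 107 that did not (28.0%), beside 39.2% and 30.2% over all genes. In the untreated list they were in 12 of 28 coding peaks that overlapped the PDGF-AA list (42.9%) and in 1 of 34 that did not (2.94%, 0.521 to 14.9), that of Trim41. Over all genes these shares were 33.8% and 12.2%. The coding untreated peaks with a hexamer were thus nearly all at sites that the PDGF-AA list held too, among them Huwe1 exon 54, Trim26, Trim56, Usp16, Usp34, Usp36, Usp42 and Usp47. Peak width was not held equal in this split. Shared pairs had median widths of 67 nt (PDGF-AA) and 58 nt (untreated), against 48.5 and 47.5 nt over all member peaks. Among member peaks of at least 40 nt, hexamers were in 39.3% and 24.7%. The hexamers were among the study's own top motifs in these lists, so the list difference is not an independent result.

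The position of peaks at splice sites also differed between the lists. Edges were read with intervals moved back by 1 nt, since the deposited ones lie 1 nt past exon edges. Of member peaks that touched an exon, 5 of 148 in the PDGF-AA list (3.38%, 1.45 to 7.66), against 22 of 73 in the untreated list (30.1%, 20.8 to 41.4), crossed a 5′ splice site, beside 2.06% and 16.4% over all genes. A 3′ splice site was crossed by none of either list. The 22 untreated peaks lay in 18 genes, among them Cul7, Fbxw9, Rnf2, Rnf126, Trim35, Ube3b, Usp3, Usp5, Usp12, Usp15 and Usp22, and reached 1 to 30 nt into the intron with a median of 22 nt. The 5 PDGF-AA peaks, in Cul7, Fbxl7, Fbxw11, Rnf126 and Usp3, reached 1 to 27 nt, with a median of 4 nt. For Cul7 exon 6, Rnf126 exon 5 and Usp3 exon 1, crossed in both lists, the PDGF-AA peak reached 1, 3 and 14 nt into the intron, against 20, 30 and 22 nt for the untreated peak. Peaks that ended exactly at a 5′ splice site were 22 of 148 in the PDGF-AA list (14.9%), against 13 of 73 in the untreated list (17.8%), beside 16.7% and 21.0% over all genes. Peaks that began exactly at a 3′ splice site were 14 (9.46%) in the PDGF-AA list, against 2 (2.74%) in the untreated list, beside 13.2% and 9.66% over all genes. In some pairs 1 peak lay at the end of an exon and the next at the start of the following exon. Such pairs numbered 6 among the 182 member peaks of the PDGF-AA list (among them those of Cul7, Huwe1, Rnf166, Ubr2 and Ubr4). They numbered 2 among the 124 member peaks of the untreated list (Huwe1 and Ubr2). Over all genes there were 528 among 8384 peaks and 219 among 6396 peaks, so these pairs were no more frequent among the members.

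**Figure D5:**
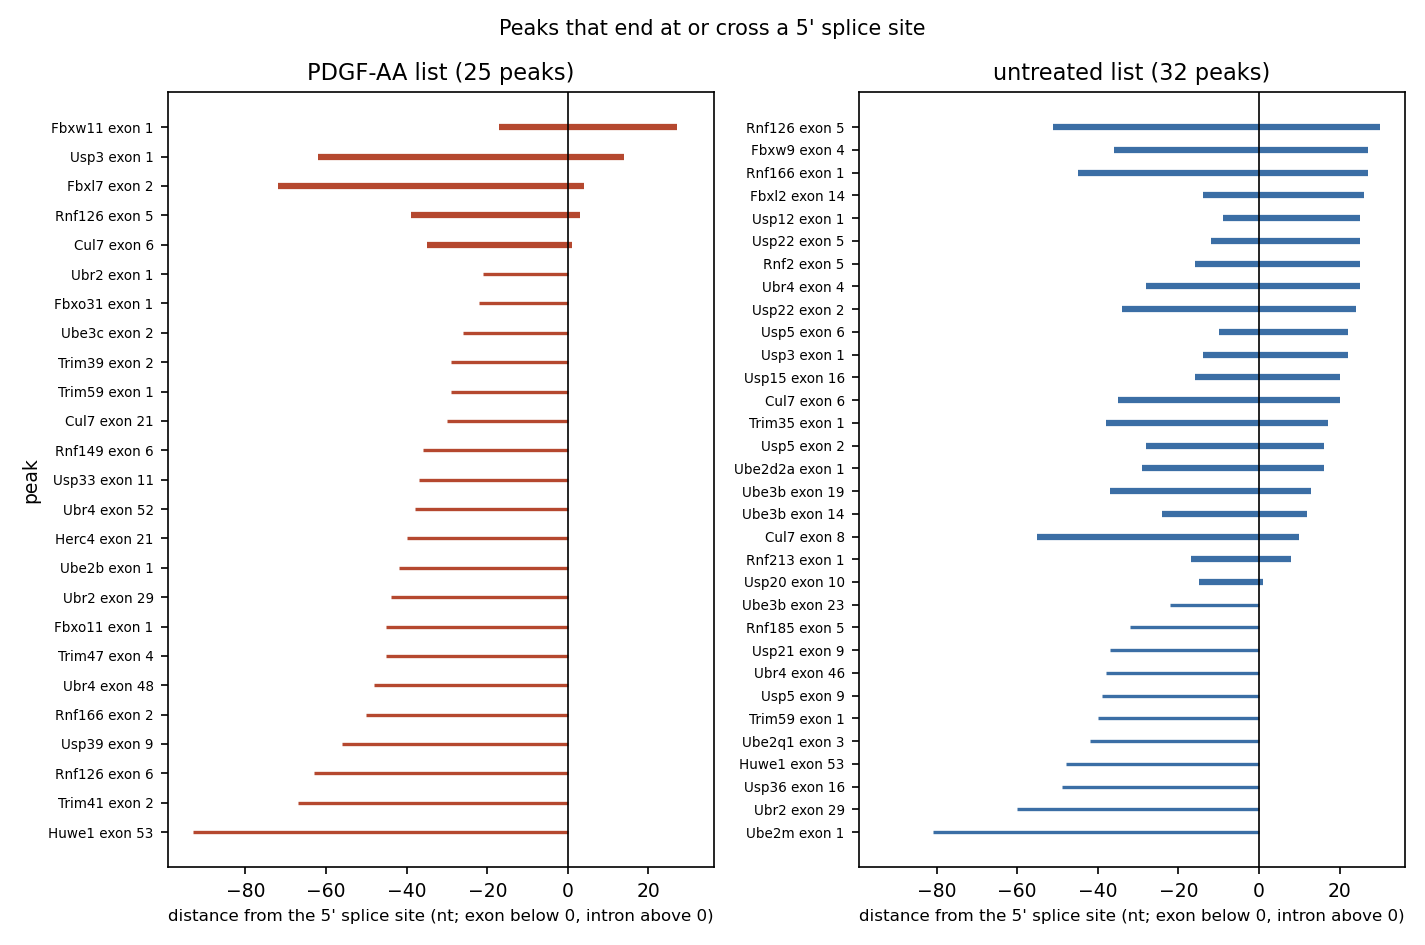
Extent of each member peak that ended at or crossed a 5′ splice site (horizontal axis, nt from the splice site, exon below 0 and intron above 0), for the 25 plotted peaks of the PDGF-AA list at left and the 32 plotted of the untreated list at right. Thick lines are the peaks that cross, 5 in the PDGF-AA list, against 21 in the untreated list.

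Exons that some annotated transcripts skip held 14 member peaks in the PDGF-AA list (7.69%, 4.64 to 12.5), against 7 in the untreated list (5.65%, 2.76 to 11.2), beside 9.85% and 7.18% of all peaks. Shared sites held 3 peaks of each list, in exons 5 and 6 of Rnf126 and the 96-nt exon 2 of Trim41. In the PDGF-AA list the others included peaks in Fbxo31, Rnf2, Rnf14, Rnf149, Rnf166, Trim47, Ube2c, Ube4b, Usp8 and Usp33, and in the untreated list they were in Fbxw9, Usp5 (exons 2 and 9) and Usp21. The Rnf126 exons are 69 and 70 nt long, and the Usp5 exons 126 and 72 nt. No member peak of either list lay in an exon found only in transcripts annotated for nonsense-mediated decay. Inclusion of these exons was not measured in the peak lists.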

How the data were processed

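The data are eCLIP peak lists, 1 per condition, in which each deposited row gives an interval, a gene and the caller's own peak name and no score (values of another kind than counts or signal). Per the methods, the authors trimmed reads with cutadapt, collapsed them on molecular identifiers, removed reads of repetitive elements, aligned the rest with STAR to GRCm39 and called peaks with omniCLIP, with the background library not given in the sources used here. Removal of repeat reads can lower peak numbers in repeats. The study lists the same read number before and after this step for the first untreated Srsf3 library. For the second untreated library and the PDGF-AA library it lists fewer reads after the step. Whether this bears on the difference in CA-run peaks between the lists was not tested. Versions in the submitters' processing notes were cutadapt 1.18 and STAR 2.7.9, beside the builds GRCm38 and GRCm39. The lists of unique peaks, which held the members bound in 1 condition alone, served only to check this.

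An interval listed for several genes was counted once, with its first gene. Regions and splice sites came from GENCODE M39, with exons numbered on the transcript with the longest coding sequence. A peak took the region with most of its nucleotides, where a nucleotide that is coding in any transcript counted as coding. A nucleotide counted as intronic only where no transcript of the gene has an exon. Overlap meant at least 1 nt on the strand. Shares carry Wilson 95% intervals, which cover counting error only. Python 3.11.15, pandas 2.3.3 and pysam 0.24.0 were used, and the functions were tested on simulated data. Inputs and IgG libraries were not analysed here. The members and gene lists were chosen with earlier results of these data known. Genes were named by fixed rules: the 10 with the largest excess in each direction, the leading genes of each family, those with the widest peaks or longest CA runs, those with repeated shared sites and those bound in skipped exons. Some members are counted but not reported here by name or plotted by name. Other members were named as further examples after their values were seen.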

Additional observations from a re-analysis of the deposited data

How the results depend on the processing

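No paired analysis was possible because each condition has 1 peak list. Of 174 recalculations of the 19 counts and shares under 17 settings, of which 2 were chosen after seeing the data, 162 stayed within 1.5 times the count or within the interval of the share. With only peaks of at least 40 nt, the PDGF-AA list held 112 member peaks and the untreated list 81, and GA-rich hexamers were in 39.3% and 24.7%. With any UTR overlap taking precedence, coding shares were 25.8% and 21.0%, so the difference in coding share depends on that order. Leaving out intron peaks on another gene's exon, a setting added later, gave 83.5% coding and 9.15% intronic peaks in the PDGF-AA list. Leaving out CA-run peaks gave 59.0% coding and 31.4% intronic peaks in the untreated list. AGAAGA alone was in 20.9% of PDGF-AA peaks, and a 100-nt window raised the share with any hexamer to 35.7%. Of 56 named genes, Fbxl17 (to 1 more PDGF-AA peak) and Herc1 (to -1) changed sign with only peaks of at least 40 nt, while 51 of 392 gene differences moved by over 1.5 times or to or from 0, and 339 did not. The lists hold no counts, so the effect of depth on these values was not tested.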

Other observations

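Other genes of the ubiquitin pathway, from lists chosen by function, carried 227 peaks in the PDGF-AA list, against 159 in the untreated list. Of 308 listed genes 161 were bound, with more peaks in the PDGF-AA list for 88, fewer for 37 and as many for 36, beside 2716, 1431 and 1221 of all 5368 bound genes. The E1 enzymes and ubiquitin genes had 15 PDGF-AA peaks and 5 untreated peaks, and 6 of 7 bound genes had more in the PDGF-AA list. Uba1, the main activating enzyme, had 3 PDGF-AA peaks and 1 untreated peak. The HECT ligases outside the named families had 22 and 17 peaks. Nedd4, the founding member of its HECT family, had 6 peaks in the PDGF-AA list, against 5 in the untreated list, Smurf1 had 4 and 2, and Wwp2 had 3 and 4.

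Other RING, RBR and U-box ligases had 89 PDGF-AA peaks and 62 untreated peaks, with more in the PDGF-AA list for 35 of 60 bound genes and fewer for 9. Pdzrn3 went the other way, with 6 PDGF-AA peaks, all coding, and 12 untreated peaks, of which 5 were coding and 7 intronic, 4 of these on CA runs. SUMO and UFM1 factors had 30 and 12 peaks, of which the SUMO ligase Zmiz1 alone had 13 and 4. Its PDGF-AA peaks included 7 coding ones, and its 4 untreated peaks were all intronic, 3 of them on CA runs. Other deubiquitinases had 18 and 8 peaks. The proteasome and p97 list had 18 PDGF-AA peaks and 24 untreated peaks, with more in the PDGF-AA list for 6 genes, fewer for 9 and as many for 8. Psmd3, a subunit of the regulatory particle, had none and 4. Cullin adaptors and regulators had 35 and 31 peaks, and Kctd10, an adaptor of Cul3, had none and 4.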
